A study of Homo sapiens with 4 samples.

Results

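TGF-beta signalling in MCF-10A cells, an untransformed human breast epithelial line, was followed through 10 genes: the ligands TGFB1, TGFB2, TGFB3 and INHBA, the receptors TGFBR1 and TGFBR2, the inhibitory SMAD7, and the targets TGFBI, ID1 and ID3. They were chosen by name from 20501 genes on the array, and each was measured by 1 probe whose accession is a RefSeq transcript of that gene. The cells were grown in MEBM medium with pituitary extract, hydrocortisone, EGF, insulin and cholera toxin, were given 10 µM of a peptide, and were taken for RNA after 24 h or 48 h. The peptide was either the one labelled stapled-peptide or the one labelled non-specific stapled-peptide, and each combination with a time was read on 1 single-colour array, so that 4 arrays made up the series. The labels also call the treatment of the non-specific arrays control. They do not say which of these peptides the study names stERAP-2 and which stERAP-5, and the direction of the differences below relative to the study's own comparison is therefore not settled. Every difference is given on the log2 scale as non-specific stapled-peptide minus stapled-peptide, or as 48 h minus 24 h.

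The TGF-beta ligands are secreted as latent complexes, which must be opened before the ligand can bind. Free ligand binds the type II receptor TGFBR2, which then phosphorylates the type I receptor TGFBR1, and TGFBR1 in turn phosphorylates SMAD2 and SMAD3. These join SMAD4, enter the nucleus and change the transcription of genes of the extracellular matrix, the cytoskeleton and cell cycle arrest. The BMP branch of the same superfamily uses other receptors and SMAD1, SMAD5 and SMAD9, and its best known targets are the ID genes. In mammary epithelium TGF-beta is known as a brake on growth and as an inducer of mesenchymal genes.

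The stretches just before the start of transcription of 4 of these genes are shown, chosen among members with a single start in the table. TGFBI, TGFB2 and ID1 were far lower on 1 array, whereas ID3, a close relative of ID1, was within 2-fold on all 4. The sequences are from RefSeq on build GRCh38.p14 and give the 250 bases before the start, 5′ to 3′ on the strand of the gene. TGFBI lies at chr5:136028738-136028987 and TGFB2 at chr1:218345086-218345335, both on the plus strand. ID1 lies at chr20:31605039-31605288 on the plus strand and ID3 at chr1:23559502-23559751 on the minus strand. Capitals mark GTCT or its reverse complement AGAC, the core letters bound by SMAD proteins, and GGCGCC, which reads the same on both strands and is a core of GC-rich elements of BMP target genes.
TGFBI: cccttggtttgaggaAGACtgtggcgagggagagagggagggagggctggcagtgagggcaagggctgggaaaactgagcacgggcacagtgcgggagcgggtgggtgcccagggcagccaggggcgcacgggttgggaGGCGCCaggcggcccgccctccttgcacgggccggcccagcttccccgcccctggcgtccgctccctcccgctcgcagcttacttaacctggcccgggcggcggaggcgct
TGFB2: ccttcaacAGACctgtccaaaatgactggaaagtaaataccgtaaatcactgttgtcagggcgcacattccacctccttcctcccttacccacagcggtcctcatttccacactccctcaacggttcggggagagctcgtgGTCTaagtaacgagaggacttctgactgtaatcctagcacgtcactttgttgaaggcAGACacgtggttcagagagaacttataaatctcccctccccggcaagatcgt
ID1: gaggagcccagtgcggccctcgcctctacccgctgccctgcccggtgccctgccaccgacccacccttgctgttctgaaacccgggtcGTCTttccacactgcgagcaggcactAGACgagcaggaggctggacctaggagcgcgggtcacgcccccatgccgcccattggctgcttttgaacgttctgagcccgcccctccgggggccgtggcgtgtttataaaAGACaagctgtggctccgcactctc
ID3: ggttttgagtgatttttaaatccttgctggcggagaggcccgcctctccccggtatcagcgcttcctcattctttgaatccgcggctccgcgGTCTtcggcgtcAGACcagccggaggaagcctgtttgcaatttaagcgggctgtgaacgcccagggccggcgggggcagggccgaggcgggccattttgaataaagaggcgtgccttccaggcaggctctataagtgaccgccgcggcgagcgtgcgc
The GTCT letters occurred once before TGFBI, 3 times each before TGFB2 and ID1, and 2 times before ID3. Such a short word is common: 77.5% of 35116 windows of this length in the human table held it on either strand, as did 17 of the 21 windows of the 10 genes. GGCGCC was found before TGFBI, in 2 of the 21 windows, and in 16.4% of all windows. The AP-1 word TGANTCA, in 6.57% of all windows, was in none of the 21 windows. The SMAD letters were present before both ID1 and ID3. TGFB1, which is not shown, also has a single start, and its window held 0 of these letters. Any part of these words in the differences between the arrays was not tested.

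Before the values, one array needs to be described. Between 62.5% and 65.7% of probes were well above background on the 4 arrays, and 0 probes used here were saturated on any of them. Any pair of the other 3 arrays correlated at r = 0.976 to 0.978 over the probes, whereas the non-specific array at 48 h correlated with them at r = 0.799 to 0.807. The basal mammary epithelial markers that define the MCF-10A line (KRT5, KRT14, KRT17, TP63, ITGA6, CDH3, LAMB3 and EGFR) were well above background on every array, but their summed signal was 416.6 on that array and between 47506 and 50188 on the others. KRT5, the keratin of basal cells, was at log2 levels of 14.65, 14.54 and 14.59 on the others and at 5.02 there. The basal markers match the label of the cell line on 3 arrays, and on the fourth they go against it.

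Lists for other cells moved with the same array. The 9 genes of an embryonic kidney line list summed to between 306.9 and 362.4 on the other 3 arrays. On the non-specific array at 48 h they summed to 22416. There 5 of the 9 were past 2-fold higher than with stapled-peptide at 48 h, beside 21.2% of all genes. CKB, at 6.13, was well above background on both 48 h arrays. LIN28B (a log2 difference of at least 8.98), HOXD10, NEFL and INA were dim with stapled-peptide at 48 h. Their differences are bounds, since they entered only through the array where they were high. SIX2 at 0.47 and WT1 at a bound of 0.86 were within 2-fold. The brighter probes of PAX2 and L1CAM were not well above background on that array. Each of these has a further probe, with differences of 3.89 and 0.11. The other lists gave lower sums there than on any other array. The luminal mammary list had 30572 to 32290 against 6559, the general epithelial list 456.2 to 495.2 against 292.2, the fibroblast list 197.3 to 208.8 against 143.7, the endothelial list 684.1 to 770.2 against 65.1, and the immune list 1437 to 1517 against 295.9. In bulk RNA, fewer cells of a type and less RNA per cell cannot be told apart. The part of any of this in the results on TGF-beta genes was not tested. Whether the non-specific array at 48 h holds RNA of MCF-10A cells is not settled by its label and these values, so on that array the effect of a peptide and the source of the RNA cannot be told apart. Every result below that involves the non-specific peptide at 48 h rests on that single array, and the comparison within the stapled-peptide arrays and the comparison at 24 h are those without it.

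At 48 h TGFB1, TGFB2, TGFBR2, TGFBI and ID1 were much lower on the array of the non-specific peptide, TGFBR1 was slightly higher, and SMAD7 and ID3 were close to level. Of the 10 genes, 6 were past 2-fold, 1 higher and 5 lower. On the same arrays 41% of 17112 genes were past 2-fold, 21.2% higher and 19.8% lower, so a gene past 2-fold there was common. The split over all genes depends on the scale, with 3629 higher and 3391 lower here and 4664 higher and 2787 lower without normalization, and the 6 genes were called in the same directions on both scales. The larger differences were less so, with 5 of the 10 past 4-fold against 16.8% of all genes, and 4 past 10-fold against 6.56%. The median difference of the 10 genes was -1.48, and that of all genes was 0.03. With 1 array for each condition, no test within a time and no error between cultures can be given, and a model of peptide and time without interaction was not fitted. Beside each difference stands the error that the scanner software estimates from the spots, in log2 units, which covers the reading of the array alone.

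**Figure D1:**
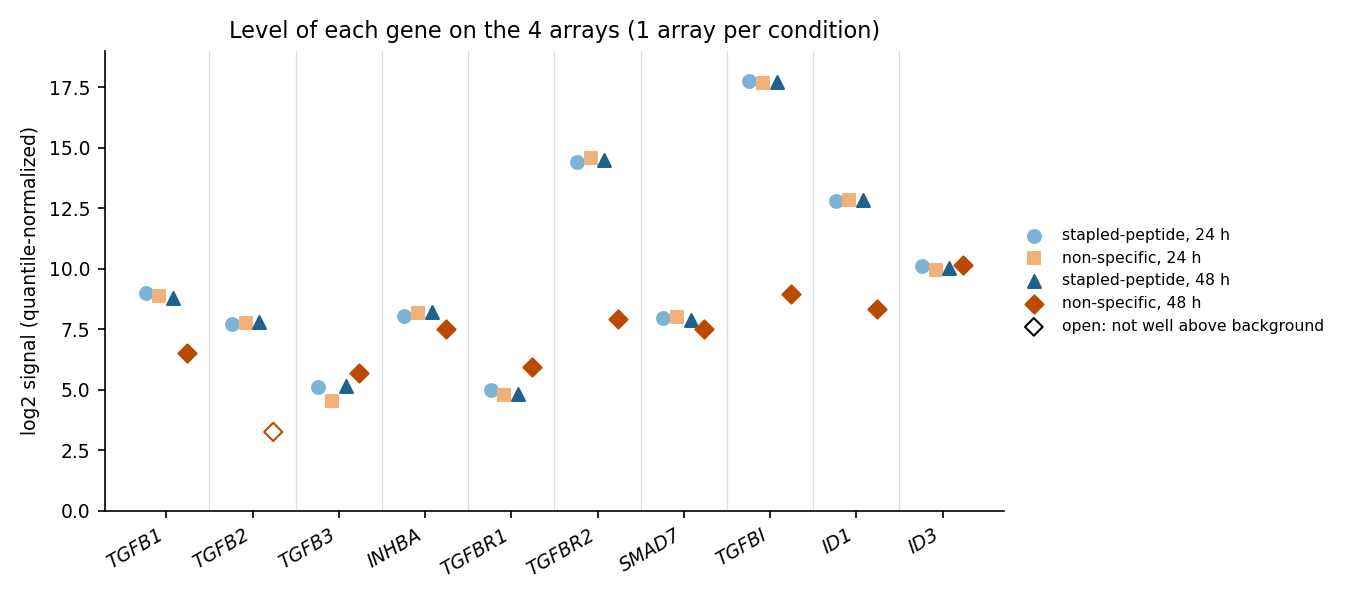
Level of the 10 genes on each array, as quantile-normalized log2 signal on the vertical axis, with 1 symbol for each of the 4 arrays and open symbols for a probe not well above background. The non-specific array at 48 h lies far below the others for TGFB1, TGFB2, TGFBR2, TGFBI and ID1, slightly above them for TGFBR1, and among or next to them for ID3, SMAD7 and INHBA.

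Among the ligands, TGFB1, the form that most epithelial cells make, was read after 24 h at log2 levels of 8.98 (stapled-peptide) and 8.89 (non-specific), and after 48 h at 8.80 and 6.53. The first 3 values are within 0.18 of each other, and the last is clear of them. Its difference at 48 h was -2.26 (software error 0.21), or 4.80-fold lower. The probe is spotted 10 times on each array, and the SD of the log2 signal over those spots was between 0.03 and 0.09, so the gap was many times the scatter of spots on 1 array.

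TGFB2, a ligand tied to epithelial plasticity, stood at 7.70 and 7.78 after 24 h and at 7.80 on the stapled-peptide array at 48 h. On the non-specific array at 48 h its probe was not well above background, with a measured log2 value of 3.26. The difference is hence a bound, at least 18.9-fold lower (log2 -4.24). With the normexp background correction and an offset of 50, which pulls dim signals together, it was -2.04, still past 2-fold.

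TGFB3, the ligand best known from palate fusion and wound healing, had low levels throughout, at 5.11 and 4.53 at 24 h and 5.14 and 5.69 at 48 h. It was the member whose other 3 arrays were farthest apart, by 0.61. Its difference at 48 h of 0.55 (software error 0.27) is of the size of that range and did not reach 2-fold. Within the non-specific peptide it was 1.16 higher at 48 h than at 24 h, past 2-fold, with the 24 h value the lowest of the 4, and this was 0.96 when arrays were scaled to their 75th percentile and 0.31 with normexp.

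INHBA encodes the subunit of activin A, which signals through SMAD2 and SMAD3 by its own receptors. Its log2 levels were 8.04 and 8.17 at 24 h and 8.22 and 7.52 at 48 h. The non-specific array at 48 h was the lowest, by -0.69 (software error 0.21) against stapled-peptide, which stayed within 2-fold. The 9 spots used on each array had an SD of 0.05 to 0.07.

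The receptors differed in opposite directions. TGFBR2, the type II receptor that binds the ligand first and without which the cell does not answer TGF-beta, was read at log2 levels of 14.42 and 14.56 after 24 h and 14.49 on the stapled-peptide array at 48 h. With the non-specific peptide at 48 h it was 7.90. These 3 high values span 0.14, and the difference at 48 h was -6.59 (software error 0.20), or 96.0-fold lower, with the probe still well above background.

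TGFBR1, the type I receptor, was read at 4.99 and 4.77 after 24 h and at 4.81 and 5.95 after 48 h. The last is above the other 3, which span 0.22. Its difference of 1.13 (software error 0.29) was 2.19-fold, the only one of the 10 called in the upward direction. It is close to the limit and the signals are low, and with normexp it was 0.39 and no longer past 2-fold.

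SMAD7, which blocks the type I receptor and is itself induced by TGF-beta, was at 7.96 and 8.00 at 24 h and at 7.89 and 7.51 at 48 h. The difference at 48 h was -0.38 (software error 0.21). All 4 arrays were within 2-fold of each other.

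TGFBI, a matrix protein named for its induction by TGF-beta, gave the largest difference of the 10. Its log2 levels were 17.74 and 17.67 after 24 h, then 17.70 on the stapled-peptide array and 8.95 on the non-specific array at 48 h. As spot signals before normalization these were 227962, 216389, 197156 and 536. The difference was -8.76 (software error 0.20), or 432-fold lower, and 0.947% of all genes were past 100-fold in either direction. TGFBI is also in the study's list of genes with the largest differences, which was drawn from these same arrays and is no independent evidence.

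ID1, an inhibitor of basic helix-loop-helix factors, is induced by BMP and, in many epithelial cells, answers TGF-beta as well. Its levels were 12.79 and 12.84 after 24 h and 12.83 on the stapled-peptide array at 48 h, which are within 0.05 of each other. At 48 h with the non-specific peptide it was 8.36, a difference of -4.47 (software error 0.20) or 22.2-fold lower.

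ID3, which shares the helix-loop-helix domain of ID1, was at 10.11 and 9.97 at 24 h and at 10.02 and 10.17 at 48 h. Its difference at 48 h of 0.15 (software error 0.20) was within the software's error. The pair was thus separated on the array that stood apart, ID1 lower and ID3 at the level of the other arrays.

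**Figure D2:**
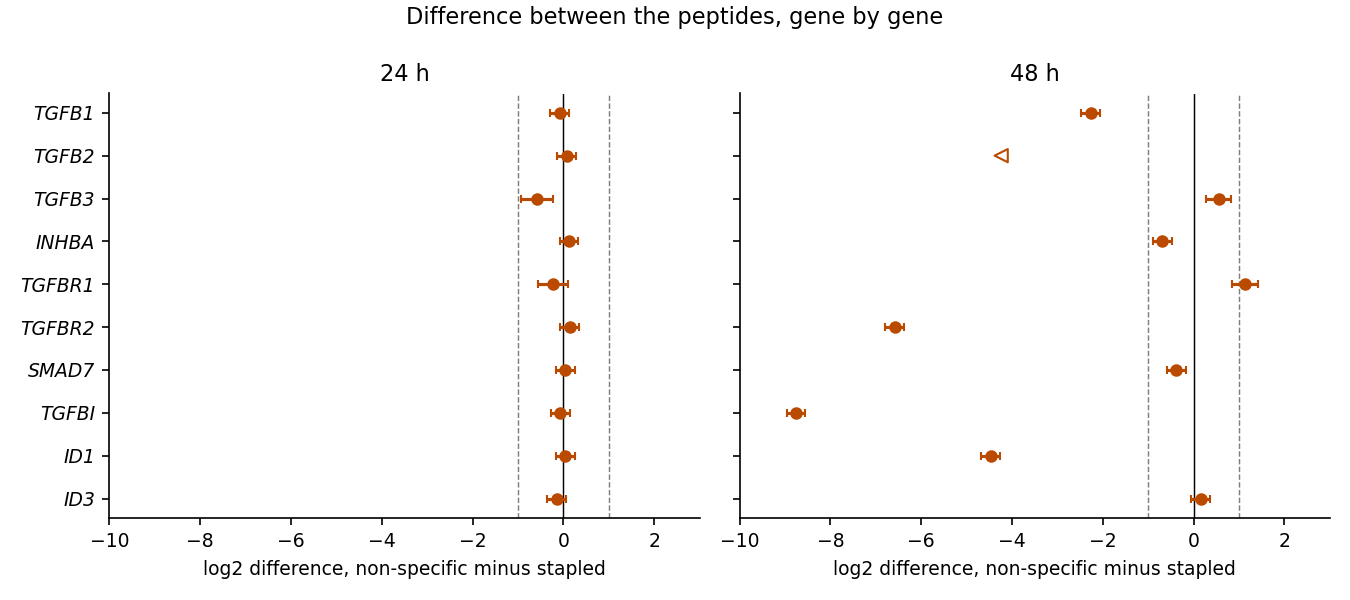
Difference between the peptides for each of the 10 genes at 24 h (left) and 48 h (right), as log2 non-specific minus stapled-peptide, with bars for the software's error of the spots, an open triangle for a bound and dashed lines at 2-fold. All 10 genes lie inside the lines at 24 h, and at 48 h they run from -8.76 (TGFBI) to 1.13 (TGFBR1).

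At 24 h the 10 genes differed little between the peptides. They lay between -0.58 (TGFB3) and 0.14 (TGFBR2), and 0 of 10 were past 2-fold, beside 1.87% of all genes. TGFBI differed by -0.06, TGFB1 by -0.09, TGFB2 by 0.07 and ID1 by 0.05. When the arrays were normalized without the non-specific one at 48 h, the range at 24 h was -0.54 to 0.13.

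Between the times the stapled-peptide arrays differed as little. From 24 h to 48 h the 10 genes moved by -0.18 (TGFB1, TGFBR1) to 0.17 (INHBA), again with 0 of 10 past 2-fold, where 2.06% of all genes were (149 higher and 183 lower, but 81 and 440 without normalization and 108 and 249 with the 75th percentile as scale). Under the non-specific peptide 7 of 10 were past 2-fold between the times, TGFB3 and TGFBR1 higher and TGFB1, TGFB2, TGFBR2, TGFBI and ID1 lower, against 41.3% of all genes, of which 21.3% were higher and 20.1% lower. TGFBR2 was 101-fold and TGFBI 422-fold lower at 48 h than at 24 h. This comparison shares its 48 h array with the comparison between the peptides at 48 h, so both sets of values hang on the same measurement. Set against the range of the other 3 arrays, 5 of the 10 genes were more than 2-fold below it on the non-specific array at 48 h and 0 were more than 2-fold above it. Over all genes the shares were 18.0% below and 19.7% above.

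The rest of the pathway was taken as 104 genes in 7 lists by role, of which 103 were on the array and 96 gave a difference at 48 h. Past 2-fold were 62 of the 96 (64.6%), 23 higher and 39 lower with the non-specific peptide, against the 41% of all genes. Many of these are bounds, since a gene dim on 1 array enters only through the array where it is high, and among the 69 genes well above background on both arrays 39 were called, 11 higher and 28 lower. With the same filter 37.5% of 14443 genes over the whole array were called, 2734 higher and 2685 lower. At 24 h it was 0 of 81, and these lay between -0.56 and 0.53.

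**Figure D3:**
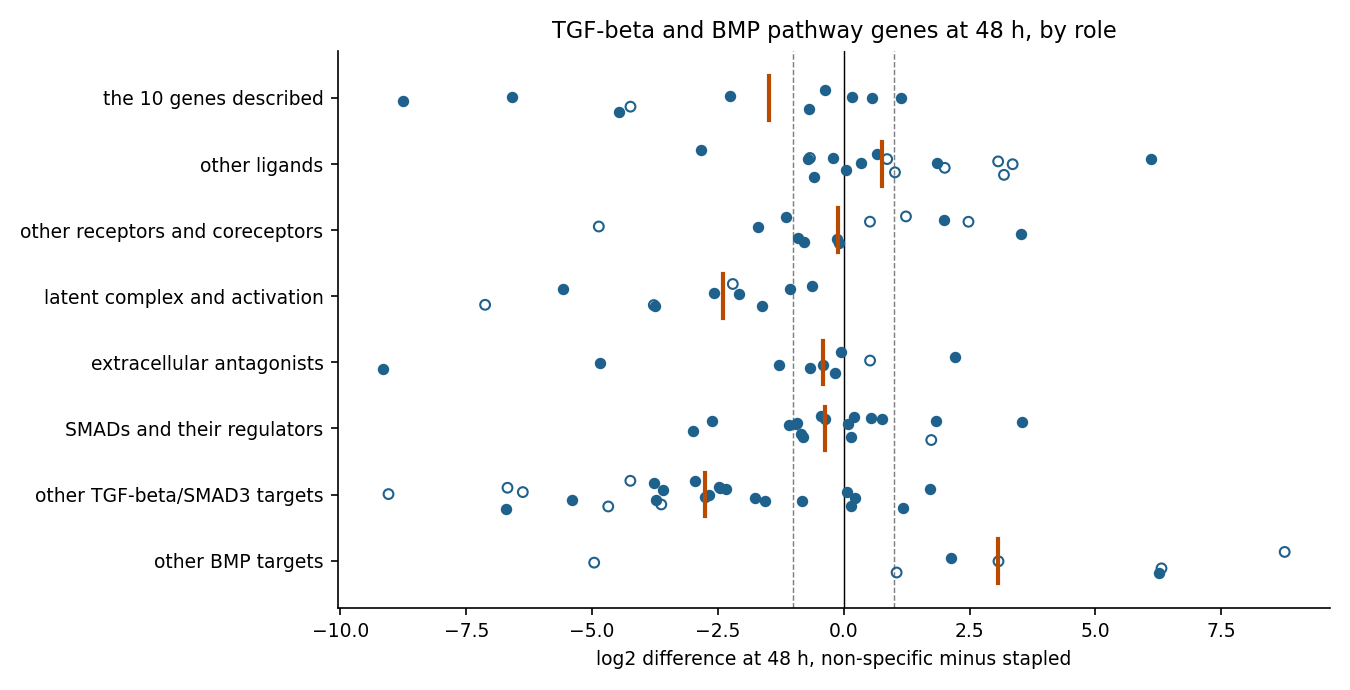
Difference at 48 h, as log2 non-specific minus stapled-peptide, of the 10 genes and of each list of pathway genes, with 1 circle per gene, open circles for bounds, orange lines for medians and dashed lines at 2-fold. The latent complex genes and the TGF-beta targets lie mostly to the left, with medians of -2.39 and -2.77, and the circles of the BMP targets lie mostly to the right, most of them open.

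Genes of the list for the latent complex and its activation were mostly lower. Of 10 with a difference, 9 were past 2-fold lower with the non-specific peptide at 48 h, 0 were higher, and the median was -2.39. Over all genes 19.8% were lower and 21.2% higher. Without the 3 of the list that were dim on the low array, 6 of 7 were lower, with a median of -2.08. Among genes well above background on both 48 h arrays 2685 of 14443 were lower over the whole array. ITGB8, an integrin subunit that frees the ligand from its latent complex, was at 10.63, 10.56 and 10.69 on the other 3 arrays and not well above background on the fourth, at least 140-fold lower. THBS1, thrombospondin-1, which can activate latent TGF-beta, was at 11.05, 11.40 and 11.22 and then at 5.65, a difference of -5.57, although a second probe of the gene gave -2.88. LTBP1, which binds the latent complex to the matrix, differed by -2.58, and its second probe by -2.51. LTBP2 was lower by a bound of -3.78. TGFB1 and TGFB2 and most genes of this list were hence low on the same array.

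The transcriptional targets of TGF-beta and SMAD3 were also mostly lower, as TGFBI was. Of 25 with a difference, 19 were past 2-fold lower, 2 were higher and 4 were within 2-fold, with a median of -2.77. The shares over all genes were 19.8% lower and 21.2% higher. Of the 19 targets well above background on both arrays 13 were lower and 2 were higher, with a median of -2.45. With that filter the whole array had 2685 lower and 2734 higher of 14443 genes. FN1, fibronectin, was at 12.42, 12.35 and 12.61 on the other 3 arrays and below the well-above-background mark on the fourth, at least 529-fold lower. CCN2, a matricellular growth factor, was lower by at least 103-fold. ANGPTL4, a secreted lipase inhibitor, stood at 11.41, 11.66 and 11.60 and then at 4.88, a difference of -6.72. The 2 higher genes were KLF10, an early TGF-beta response factor, at 1.72, and BHLHE40, a helix-loop-helix repressor, at 1.17. With normexp, which shrinks differences from a dim value, FN1 was at -6.59, CCN2 at -3.85, ANGPTL4 at -5.13 and ITGB8 at -4.77, and BHLHE40, at 0.62, was no longer past 2-fold. FN1, CCN2, ANGPTL4, ITGB8, BMP7, ID4, DCN and TGFBR2 are also in the study's list from these arrays. That list takes genes past 100-fold at 48 h by the study's own values. Here TGFBR2 (96.0-fold), BMP7 (68.3-fold) and the bound of ID4 (79.4-fold) were below that limit.

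Of 7 other BMP targets only ID2 and MSX1 were well above background on both 48 h arrays, and both were past 2-fold higher with the non-specific peptide. With that filter 2734 of 14443 genes over the whole array were higher. A further 4 of the 7 were dim with stapled-peptide and entered through the array where they were high, and 1 was dim on the non-specific array. ID2, the third of the ID genes measured, was at 6.49, 6.62 and 6.38 on the other 3 arrays and at 12.63 on the fourth, 76.3-fold higher against stapled-peptide at 48 h, and its second probe gave 6.24 beside 6.25. ID4 was not well above background on the other 3 arrays and reached 10.20, at least 79.4-fold higher. HEY1, a repressor downstream of BMP and of Notch, went from dim to 12.64, at least 433-fold higher. With normexp ID2 was at 5.29, ID4 at 4.23 and HEY1 at 6.21. ATOH8 was at 8.58, 8.42 and 8.53 and then dim, at least 31.1-fold lower. The 4 ID genes thus fell on both sides, with ID1 lower, ID3 level and ID2 and ID4 higher on that array.

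**Figure D4:**
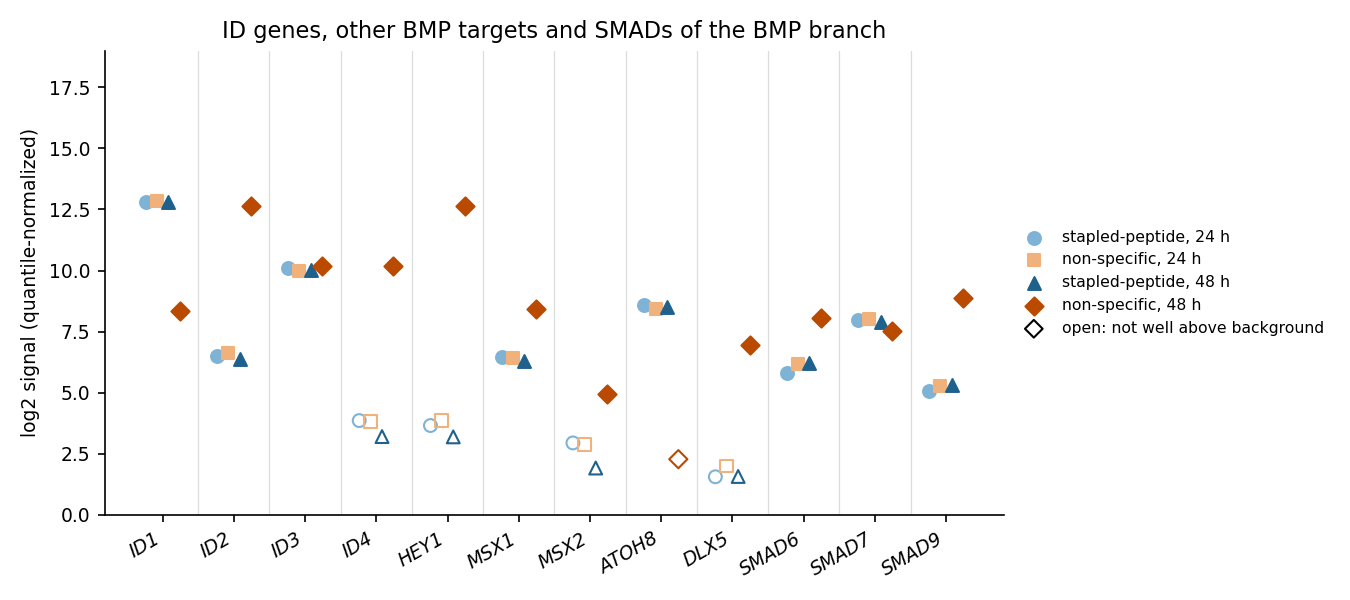
Level of the ID genes, other BMP targets and SMADs of the BMP branch on the 4 arrays, as quantile-normalized log2 signal, with open symbols for a probe not well above background. On the non-specific array at 48 h ID1 and ATOH8 lie below the other arrays, ID3 and SMAD7 next to them, and ID2, ID4, HEY1, MSX1, MSX2, DLX5, SMAD6 and SMAD9 above them.

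Among other ligands of the superfamily 9 were well above background on both 48 h arrays, with 2 past 2-fold higher, 1 lower and a median of 0.04. With that filter 37.5% of all genes were called. The bounds added 5 higher ligands, all dim with stapled-peptide. BMP7, a ligand of the BMP branch, was at 5.32, 5.34 and 5.04 and then at 11.13, 68.3-fold higher at 48 h, and its further probes gave 5.61 and 3.12. INHBE and INHBB, activin subunits as INHBA is, were higher by at least 3.35 and 3.18. GDF5, a ligand of skeletal development, was the 1 lower gene at -2.83.

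Other receptors went both ways, 4 higher, 3 lower and 5 within 2-fold of 12, with a median of -0.11. Of these, 2 higher receptors were dim with stapled-peptide and 1 lower receptor was dim on the non-specific array. Among the 8 well above background on both 48 h arrays 2 were higher and 2 lower, with a median of -0.46. With that filter 37.5% of all genes were called. ACVR2B, a type II receptor for activins, was at 6.12, 6.17 and 6.34 and then at 9.87, a difference of 3.53. AMHR2, the receptor of anti-Müllerian hormone, differed by 1.98. ACVR1C, a type I receptor, was higher by a bound of 2.48 on one probe and 0.54 on another. On the lower side were ENG, the co-receptor endoglin, by a bound of -4.87, ACVR1, a BMP type I receptor, at -1.71, and TGFBR3, the co-receptor betaglycan that presents TGFB2, at -1.15. Of the other type II receptors, BMPR2 was at -0.90 and ACVR2A at -0.10, so that beside TGFBR2 these receptors lay on both sides of 0. With normexp AMHR2 was at 0.74 and TGFBR3 at -0.63, both within 2-fold.

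Of 17 SMADs and their regulators, 3 were past 2-fold higher, 3 lower and 11 within 2-fold, with a median of -0.37, a share of calls not far from the 41% of all genes. SMAD2 and SMAD3, the carriers of the TGF-beta signal, differed by -0.46 and -0.80, and SMAD4, the shared partner, by -1.09, with -1.24 and -1.01 on further probes. SMAD9, of the BMP branch, was 3.54 higher and the inhibitory SMAD6, which acts mainly on BMP signals, 1.83 higher, whereas the inhibitory SMAD7 was within 2-fold. LDLRAD4, a restraint on TGF-beta signalling, was higher by a bound of 1.74, and by 0.69 with normexp. PMEPA1, which is induced by TGF-beta and feeds back on it, was at -2.99, and TGIF1, a SMAD co-repressor, at -2.62.

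Of the extracellular antagonists 9 gave a difference, with 3 lower, 1 higher and 5 within 2-fold, and a median of -0.41. This share of calls is not far from the 41% of all genes. DCN, the proteoglycan decorin, which binds TGF-beta, was at 14.84, 14.96 and 14.88 and then at 5.73, a difference of -9.15, and its second probe gave -7.95. FSTL3, an activin-binding protein, differed by -4.84 and TWSG1, a BMP-binding protein, by -1.28 (-0.75 with normexp), whereas FST, follistatin, which binds activin A, differed by -0.41. CHRD, the BMP antagonist chordin, was 2.21 higher on one probe and at -0.51 on another, and its direction is uncertain.

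Genes with the profile most like that of the 2 extreme members were sought among 14041 genes that were well above background on all 4 arrays, by the largest gap on any of the other 3 arrays after each gene's stapled-peptide value at 24 h was subtracted. Nearest to TGFBI were C19orf33 (gap 0.06, difference at 48 h -8.71), AKR1C3 (0.08, -8.83) and DUSP23 (0.08, -8.76). Nearest to TGFBR1 were TMEM254 (gap 0.04, difference 1.12), FLCN (0.05, 1.07) and ECSIT (0.07, 1.02). With 4 arrays, of which 1 stood apart, likeness mostly restates the value on that array.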

How the data were processed

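The 10 genes, the pathway lists and the lists of cell markers were chosen with earlier results of these data known. The deposited spot intensities are linear signals that the authors' scanner software (Feature Extraction 10.7.1.1 per the file headers, 9.5 per the labels) had background-subtracted within each array on a grid for hg19, and other deposited columns hold its marks for background, saturation and outliers. Arrays had not been normalized against each other. Control spots and outlier-marked spots were left out, which dropped 9 of 50599 probes. Log2 signals were averaged over the spots of each probe and quantile-normalized over the 4 arrays, as in the study's methods. Each gene is given by its probe of highest mean level, and RefSeq accessions gave 28168 probes (55.7%) a gene. A probe dim on 1 array of a comparison was raised there to the lowest well-above-background signal, which makes a bound, and a probe dim on both gave no difference. A difference of 2-fold or more was called. With 1 array per group no test within a time can be had, and a model of peptide and time without interaction would leave 1 residual degree of freedom and was not fitted. The number of arrays limits the precision, and all were on 1 slide and in 1 scan. Genes named outside the 10 are CCN2, SMAD2, SMAD3, SMAD4, SMAD6, FST, LTBP1, ID2 and ACVR1, the 3 largest past 2-fold in each direction of each list, and the 3 nearest profiles of the extreme members, and 1 further gene of this rule is not reported here. The steps were tested on simulated data in which few probes were changed, all of them bright on the unchanged arrays. On the arrays here 41% of genes were past 2-fold at 48 h and several of the 10 genes were dim, which the simulation did not cover. Alternatives were the 75th percentile as scale, unnormalized values, normexp with an offset of 50 on median pixel signals, no bound, pairs of arrays both well above background, marked spots kept, a mean over the probes of each gene, limits of 4-fold and 10-fold, and the authors' combined table of intensities (within 0.001 log2 of the mean over a probe's spots for 49803 of 50599 probes). Python 3.11.15, numpy 2.4.6, pandas 2.3.3, matplotlib 3.10.9 and limma 3.58.1 in R 4.3.3 were used. Motifs were searched on both strands of the RefSeq windows, whose positions alone are printed, since the array grid is on another build.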

Additional observations from a re-analysis of the deposited data

How the results depend on the processing

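The counts at 24 h and between times under stapled-peptide stayed at 0 of 10 under every alternative run, and the direction of no count or median turned. At 48 h between 4 and 6 of the 10 genes were called, 5 with normexp (without TGFBR1), with a limit of 4-fold (without TGFBR1) or when dim values were left out (without TGFB2), and 4 with a limit of 10-fold. The share of all genes called at 48 h was 27.7% with normexp, 37.5% when dim values were left out and 43.5% without normalization. It was 16.8% with a limit of 4-fold and 6.56% with a limit of 10-fold. With a limit of 10-fold the time comparison under the non-specific peptide fell from 7 called genes to 4, and the list genes called at 48 h from 62 to 26. When a probe had to be well above background on each array of the pair, which leaves out TGFB2 and dim list genes, 39 of 69 list genes were called and the median of the members was -0.69. That median was -1.14 without normalization, where the median of all genes shifted by 0.23 at 48 h, and -1.11 with normexp, under which TGFBR1, AMHR2, TGFBR3, TWSG1, LDLRAD4 and BHLHE40 were no longer past 2-fold. Normalizing without the non-specific array at 48 h, an alternative chosen after seeing the data, left 0 of 10 called in both comparisons that do not use it. No paired analysis was possible because each group holds 1 array. Dim signals limit the values of TGFB3, TGFBR1 and every bound.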
